A study of Rattus norvegicus with 12 samples.

Results

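S100 proteins are small calcium-binding proteins, and the 10 S100 genes described here are S100a1, S100a3, S100a4, S100a6, S100a8, S100a9, S100a10, S100a11, S100a13 and S100b. They were taken as the probe sets whose only gene symbol in the array annotation is one of these names, which gave 1 probe set for each gene, or 10 of the 31042 probe sets tested. F111 is an established line of rat fibroblasts, and all arrays used here come from it. F111 A16 cells had been kept adherent on plastic for 16 h. Colony cells descend from F111 cells that were held in suspension over agarose for 16 h (NA16) and then kept in soft agar for 7 days. Colonies were released from the agar, and the cells that settled on a dish within hours were used. Both groups were grown in the same medium with serum, and no drug, allele or transgene is named for either. The groups also differ in karyotype. Spectral karyotyping in the same study found a fused pair of chromosome 2 in all Colony cells and in a small minority of A16 cells, with further gains and losses of chromosomes in both. The groups therefore differ in descent, in karyotype, in days of culture and in time spent attached, and these cannot be told apart. Each group has 3 Affymetrix arrays, namely biological replicate 1, biological replicate 2 and a technical array that carries no biological number. For Colony biological replicate 2 one label speaks of tumour formation and the others of colonies, and it was kept as Colony.

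An S100 protein folds around a pair of EF-hands, the helix-loop-helix motif that holds a calcium ion, and most members pair up into dimers. On binding calcium the dimer opens a surface that docks target proteins such as annexins, myosin heavy chains and receptors, so that these proteins act as sensors more than as stores of calcium. Several members are also released from cells and bind receptors such as the one for advanced glycation end products (Ager). In fibroblasts S100a4, S100a6, S100a10 and S100a11 are known as abundant members, whereas S100a8 and S100a9 are typical of neutrophils and S100b of glia, Schwann cells and pigment cells.

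Values are intensities in RMA units, the background-corrected and normalised brightness of a probe set, and are always given in the order biological replicate 1, technical array, biological replicate 2. An intensity depends on the probes as well as on the transcript. Percentiles, the words bright and dim, and summed intensities therefore describe brightness and do not compare amounts of transcript between genes. Differences are log2 intensity of Colony minus A16, with the standard error (SE) of the limma fit on 2 cultures per group, the technical array having been averaged with biological replicate 1. A gene was called when its adjusted p was under 0.05 and its fold change over 2, and "rose" and "fell" are used only of called genes. The SD of log2 differences between arrays was 0.30 for the A16 biological replicates, 0.33 for the Colony biological replicates, and 0.67 to 0.76 between groups. The technical array of A16 was 0.17 from biological replicate 1 and 0.30 from biological replicate 2, but that of Colony was nearly as far from the one (0.22) as from the other (0.24). The labels call the replicates biological without saying that they are separate cultures, so the p-values measure only the spread between these samples, which may be technical.

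Of the 10 S100 genes, 1 rose in Colony cells, S100a1, and 0 fell, while 9 were not called. Over all probe sets, 4.00% were called higher and 5.81% lower. With no fold threshold, 3 of the 10 had an adjusted p under 0.05, all of them higher in Colony cells (S100a1, S100a13 and S100a3), and the share over all probe sets was 22.7%. For an unadjusted p under 0.05 in the same limma fit the numbers were 3 higher and 1 lower (S100a11), where 17.8% of all probe sets were higher and 16.2% lower. The 3 Colony arrays lay outside the range of the 3 A16 arrays for 8 of the 10 genes, 5 above and 3 below, where 45.9% of all probe sets were apart in this way. The same 8 genes were apart on the same side in PLIER, the other summary of the same arrays. The median log2 difference of the 10 was 0.11, beside 0.05 for all probe sets. In these bulk samples, fewer cells of a type and less RNA per cell cannot be told apart.

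**Figure D1:**
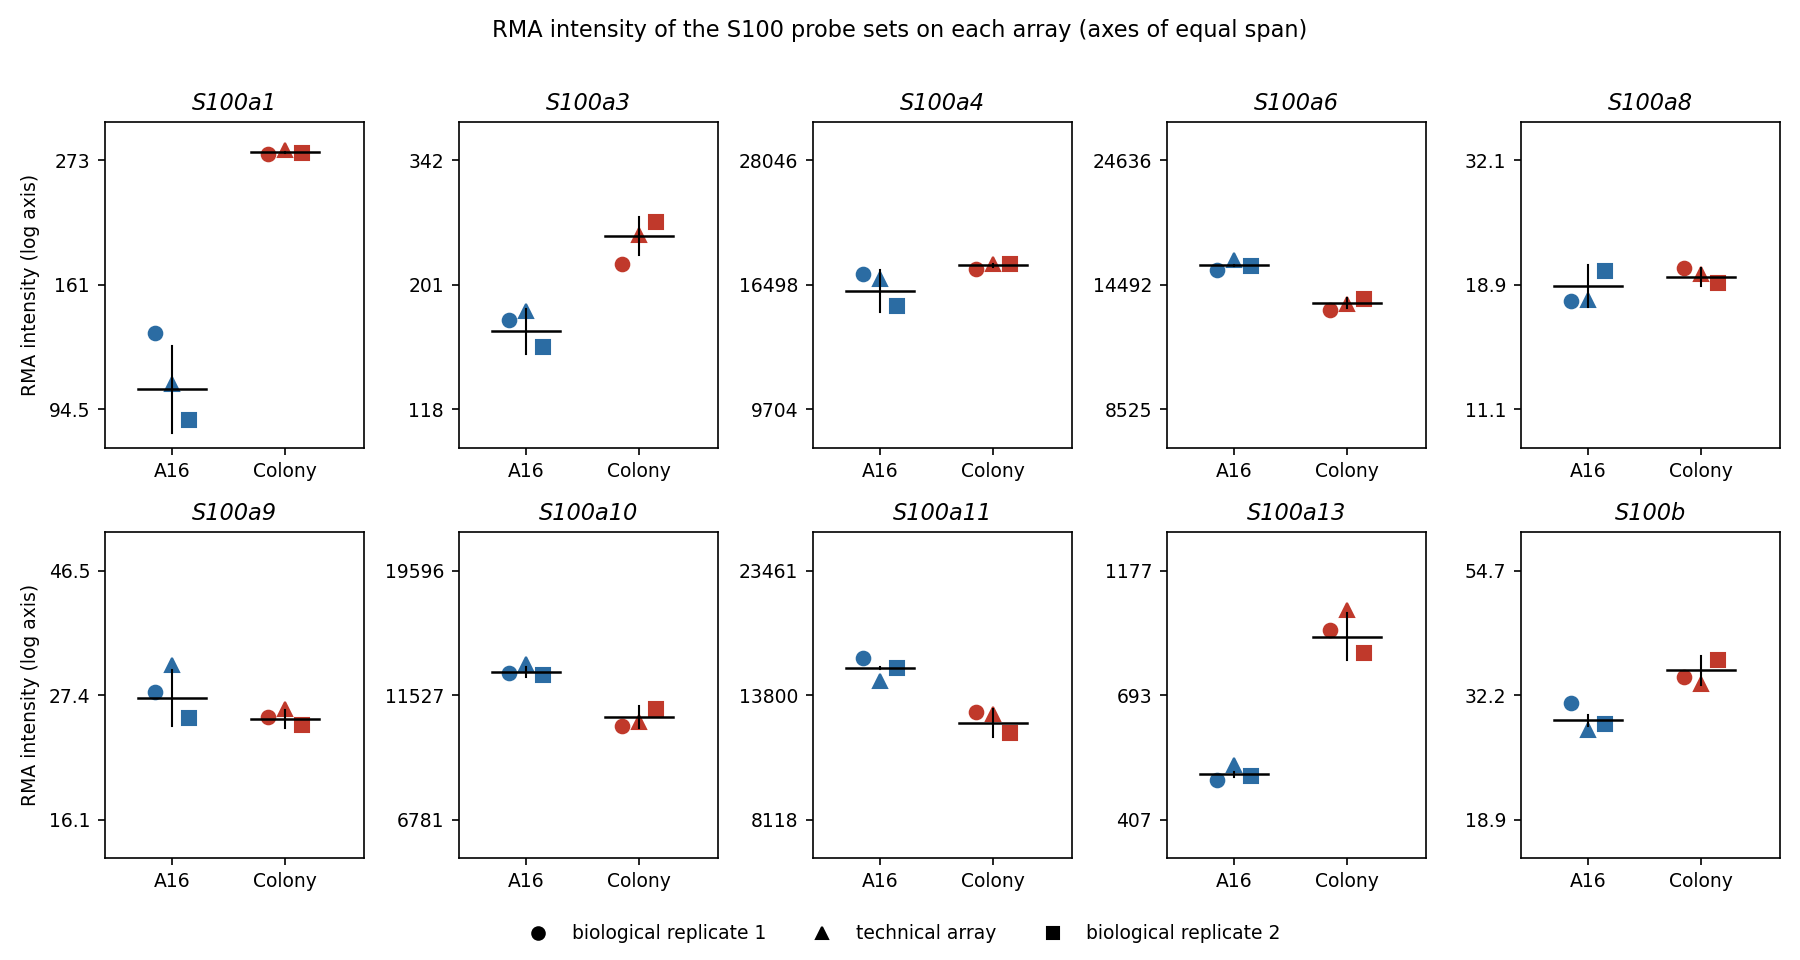
RMA intensity (log axis, each spanning 4-fold) of the 10 S100 probe sets on the 3 A16 arrays (blue) and the 3 Colony arrays (red). Circles are biological replicate 1, triangles the technical array and squares biological replicate 2; the horizontal line is the mean of the 2 cultures and the vertical line 1 SD. The groups are widest apart for S100a1 and S100a13 and overlap for S100a8 and S100a9.

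S100a1, best known from heart and skeletal muscle, where it acts on calcium release and on the calcium pump of the sarcoplasmic reticulum, was the member with the largest difference. Its RMA intensity was 131, 105 and 90.3 in A16 cells and 280.4, 286 and 282 in Colony cells. The Colony arrays lay close together and all above the A16 arrays, among which biological replicate 1 was highest and biological replicate 2 lowest. The difference was 1.46 on the log2 scale (SE 0.16, 95% interval 1.07 to 1.84, adjusted p = 0.0013), or 2.74-fold. In PLIER units the A16 arrays read 68.2, 53.2 and 48.4 and the Colony arrays 257, 234 and 247, and the fold was 3.74 with 16 added before the logarithm. The call held in each fit that left out 1 biological replicate, with log2 differences from 1.27 to 1.65.

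S100a13, which takes part in the release of signal-less proteins such as fibroblast growth factor 1 (Fgf1), was also higher in Colony cells but did not reach the fold threshold. Its RMA intensity was 483, 513 and 491 in A16 cells against 916, 994 and 828 in Colony cells. The A16 arrays differed little from each other, and the lowest Colony array was well above all of them. The difference was 0.85 on the log2 scale (SE 0.14, 95% interval 0.52 to 1.17, adjusted p = 0.0057), or 1.80-fold, and the interval includes 2-fold. S100a3, known from the cuticle of the hair and rich in cysteine, read 174, 180.1 and 154 in A16 cells and 220.0, 249 and 263 in Colony cells. These groups did not overlap, but the gap between them was narrower than for S100a13. S100a3 differed by 0.59 (SE 0.14, adjusted p = 0.028), or 1.50-fold. Its adjusted p was 0.18 in PLIER with 16 added, 0.065 with the technical arrays left out, 0.13 without A16 biological replicate 2, 0.050 without Colony biological replicate 1 and 0.12 without Colony biological replicate 2.

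The 250 bases before the RefSeq start of transcription were at hand for 7 of the 10 genes (assembly GRCr8), those of S100a1, S100a8 and S100a10 not being in the table used here. The stretches below belong to S100a13 and S100a3, the members with an adjusted p under 0.05 that are in the table, and to S100a4 and S100a11, the highest and the lowest difference among the 4 bright members described next. Capitals mark a GC box (GGGCGG), the site bound by Sp1-type factors, or a TATA box (TATAAA), each searched on both strands, and all sequences run 5′ to 3′ towards the start. They lie at chr2:178296770-178297019 for S100a13, chr2:178384263-178384512 for S100a3, chr2:178388279-178388528 for S100a4 and chr2:181874882-181875131 for S100a11, all on the plus strand.
S100a13: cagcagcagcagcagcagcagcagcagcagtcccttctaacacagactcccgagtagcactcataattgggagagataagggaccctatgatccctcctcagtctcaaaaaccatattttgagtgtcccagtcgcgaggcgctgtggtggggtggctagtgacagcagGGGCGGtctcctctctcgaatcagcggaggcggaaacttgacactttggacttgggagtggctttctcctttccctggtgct
S100a3: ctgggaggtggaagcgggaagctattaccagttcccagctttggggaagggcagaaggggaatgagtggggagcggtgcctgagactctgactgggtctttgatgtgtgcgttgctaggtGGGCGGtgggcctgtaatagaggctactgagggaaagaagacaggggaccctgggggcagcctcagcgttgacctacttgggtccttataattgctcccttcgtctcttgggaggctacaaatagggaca
S100a4: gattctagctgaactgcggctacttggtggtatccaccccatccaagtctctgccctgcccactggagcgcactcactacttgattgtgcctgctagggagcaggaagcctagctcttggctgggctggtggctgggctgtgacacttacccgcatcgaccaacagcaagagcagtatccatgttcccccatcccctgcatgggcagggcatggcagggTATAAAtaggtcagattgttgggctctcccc
S100a11: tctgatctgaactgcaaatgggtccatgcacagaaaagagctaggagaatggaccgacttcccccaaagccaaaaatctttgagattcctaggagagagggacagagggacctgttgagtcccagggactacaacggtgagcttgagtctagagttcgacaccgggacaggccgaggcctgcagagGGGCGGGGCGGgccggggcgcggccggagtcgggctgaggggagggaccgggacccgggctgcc
A GC box began 82 bases before the start in S100a13, 130 in S100a3 and 80 in S100a6, and S100a11 held 2 that overlap. A TATA box began 31 bases before the start in S100a4 and 42 in S100a9, and S100b held none of the motifs searched. Of 33469 RefSeq promoters of the same length, 30.5% held GGGCGG and 12.9% TATAAA. No promoter of the 7 held the AP-1 site TGAGTCA (4.05% of all promoters) or ACGTG (16.6%), a form of the hypoxia response core. The other form of that core, GCGTG, was not searched, and the window of S100a6 holds it. These matches are a description of letters in a window and not of bound sites.

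S100a4, S100a6, S100a10 and S100a11 were among the brightest probe sets of the array, at percentiles 99.6 to 99.9 of mean log2 intensity, and none was called. S100a4, which binds the heavy chain of non-muscle myosin and is tied to metastasis, read 17259, 16954 and 15088 in A16 cells and 17687, 18039 and 18037 in Colony cells. The Colony arrays were above the A16 arrays, of which biological replicate 2 stood lowest, by a difference of 0.16 (SE 0.13, adjusted p = 0.47, 95% interval -0.16 to 0.48). S100a6, or calcyclin, a partner of the calcyclin-binding protein, read 15449, 16128 and 15709 against 13022, 13388 and 13625. All Colony arrays were below all A16 arrays, and the difference was -0.23 (SE 0.13, adjusted p = 0.26).

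S100a10, which has lost the ability to bind calcium and pairs with annexin A2 (Anxa2) at the plasma membrane, read 12679, 13177 and 12549 in A16 cells and 10083, 10254 and 10849 in Colony cells. Here too the groups did not overlap, with a difference of -0.28 (SE 0.13, adjusted p = 0.18). S100a11, a partner of annexin A1 (Anxa1), read 16192, 14675 and 15512 against 12834, 12722 and 11762, and again every Colony array was below every A16 array. Its difference was -0.33 (SE 0.13, 95% interval -0.64 to -0.03, adjusted p = 0.12). The adjusted p-values miss the threshold, and the intervals of the 4 genes exclude a change of 2-fold in either direction. The direction of S100a4, up, and of S100a6, S100a10 and S100a11, down, was the same in the 13 alternative fits that give a difference of their own, those with another scaling of the arrays included. The adjusted p was under 0.05 for S100a11 in 2 and for S100a10 in 1 of the 19 alternatives that adjust it, and in 0 for S100a4 and S100a6. Among the 19, the alternative with no fold threshold has the adjusted p of the main fit. Of the 311 probe sets in the brightest 1% of the array, 10 were called (3.22%), beside 9.81% of all probe sets, and whether the scanner range limits these probe sets was not tested.

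The remaining members gave dim signals in both groups. S100b, which outside the cell acts on glial and nerve cells, read 31.2, 27.7 and 28.5 in A16 cells and 34.8, 33.8 and 37.4 in Colony cells. The Colony arrays were above the A16 arrays by 0.31 (SE 0.13, adjusted p = 0.15), and 82.8% of probe sets were brighter. S100a8 and S100a9 together form calprotectin, the zinc- and calcium-binding complex of neutrophils. S100a8 read 17.6, 17.7 and 20.0 in A16 cells against 20.2, 19.8 and 19.0 in Colony cells, and 97.2% of probe sets were brighter. S100a9 read 27.8, 31.1 and 24.9 against 24.9, 25.8 and 24.1, with 89.0% of probe sets brighter. For both genes the groups overlapped, with differences of 0.05 (SE 0.14, adjusted p = 0.83) and -0.13 (SE 0.14, adjusted p = 0.59). The neutrophil markers measured beside them, 7 of the 14 listed, were also dim, with a probe set between percentile 9.76 and 31.3 of the array, and 0 of the 7 were called by limma (1 higher and 0 lower at an unadjusted p under 0.05, beside 19.4% higher and 15.9% lower over all genes). The higher one, the gelatinase Mmp9, read 39.9, 41.8 and 30.9 in A16 cells and 62.8, 59.3 and 69.2 in Colony cells. Its Colony arrays were all above the A16 arrays, with a difference of 0.87 (SE 0.17, adjusted p = 0.013), and its other probe set differed by -0.02. The summed intensity of the 7 was 267 to 287 on A16 arrays and 291 to 322 on Colony arrays, and its part in the S100a8 and S100a9 values was not tested.

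The array holds 7 probe sets for 6 other S100 genes, and 1 of these genes rose. S100g, the vitamin D-dependent calbindin of gut and kidney, read 32.6, 34.5 and 32.5 in A16 cells and 97.1, 101 and 100.4 in Colony cells. All Colony arrays were close to 100 and clear of the A16 arrays, with a difference of 1.60 (SE 0.13, adjusted p = 0.00031), or 3.02-fold. Of all probe sets 63.7% were brighter, and with 16 added to the RMA values the difference was 1.24, still called. S100a16, a widely expressed member, read 303, 393 and 299 against 136, 162 and 182. It was lower in Colony cells by 0.96 on the log2 scale (SE 0.16, adjusted p = 0.0063), short of the fold threshold. In PLIER it passed that threshold, the Colony arrays reading 17.7, 18.1 and 17.9 next to a lowest PLIER value of 16.0 and the A16 arrays 144, 189 and 142. It also passed without A16 biological replicate 2, at -1.07, without Colony biological replicate 2, at -1.11, with the 6 arrays as separate samples, at -1.05, with the technical arrays averaged with biological replicate 2, at -1.07, and with culture as a random block, at -1.01.

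S100a5, known from olfactory neurons, depended on the summary. In RMA the groups overlapped, with 85.0, 85.4 and 94.2 in A16 cells and 89.5, 92.0 and 87.4 in Colony cells and a difference of -0.01. In PLIER the A16 arrays read 165, 133 and 208 and the Colony arrays 60.0, 57.2 and 69.8, a log2 difference of -1.26 with 16 added (adjusted p = 0.0069). S100a14, with differences of -0.10 and -0.05 at its 2 probe sets, S100a7l2 (-0.04) and S100vp (0.16) had overlapping groups in RMA and were not called.

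**Figure D2:**
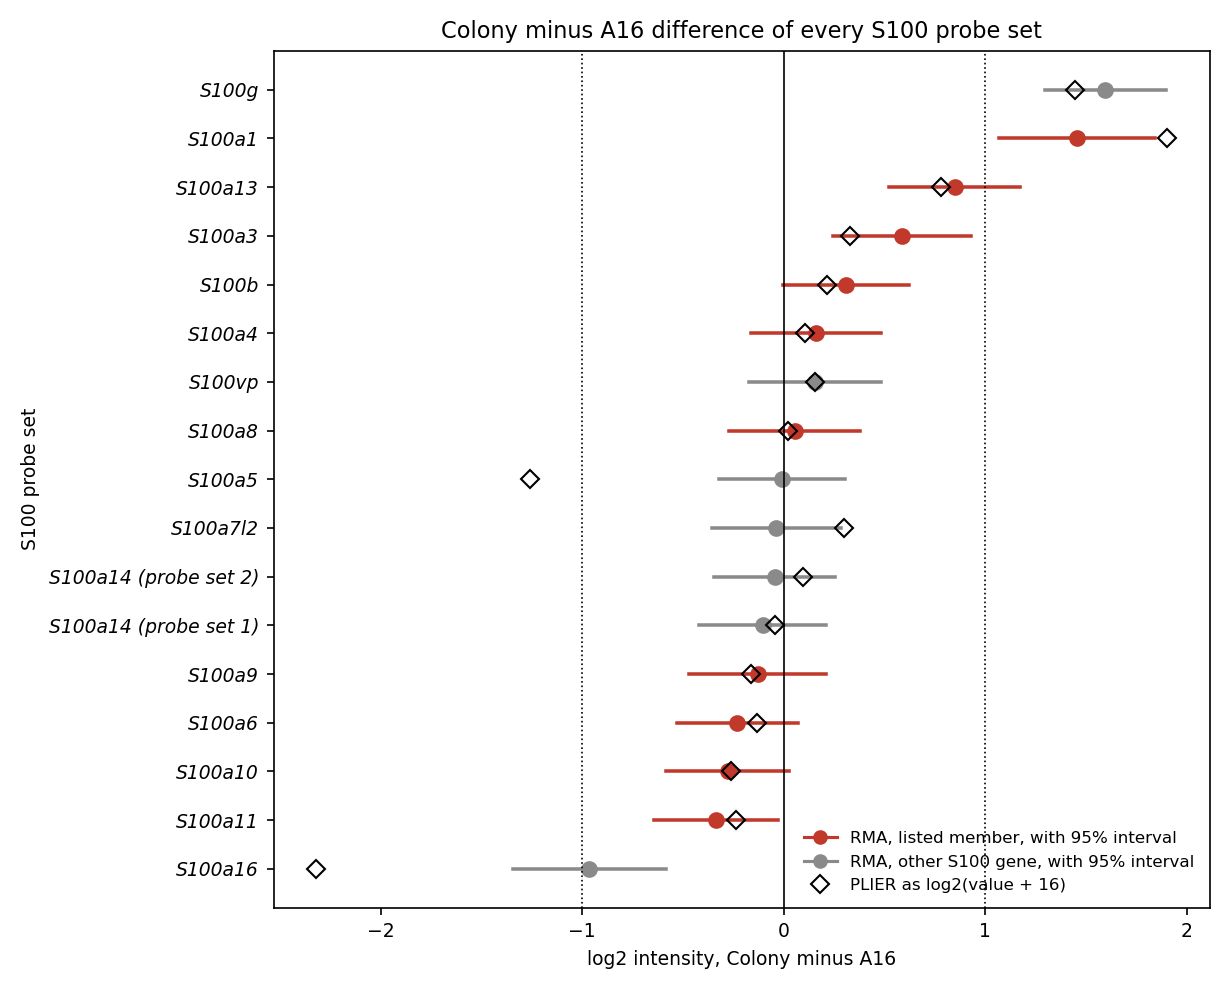
Log2 intensity of Colony minus A16 (horizontal axis) for the 17 S100 probe sets, one per row. Filled circles are RMA values with their 95% interval, red for the 10 listed members and grey for the other S100 genes, open diamonds are PLIER values with 16 added, and dotted lines mark 2-fold. The 2 summaries are apart mainly for S100a5 and S100a16, and only S100g and S100a1 lie beyond the right dotted line.

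Of the 10 genes, 9 lie on chromosome 2 of the rat, in a cluster that RefSeq orders from S100a1 to S100a10, and S100b lies on chromosome 20. The cluster holds 15 S100 genes, of which 14 were measured and 1 rose, with a median log2 difference of -0.02. S100a1 and S100a13, the members with the largest differences, are next to each other at one end of it, at 1.46 and 0.85. They are followed by S100a14 at -0.10, S100a16 at -0.96, S100a3 at 0.59 and S100a4 at 0.16, so that neighbours differed in direction. S100a11 and S100a10 close the other end, at -0.33 and -0.28. Within the cluster lie 56 other genes, among them those for loricrin, involucrin and the small proline-rich proteins of the cornified skin layer. The 14 of these 56 with a probe set ranged from -0.11 to 0.20, with 0 called by limma. In the same limma fit 0 had an unadjusted p under 0.05, beside 19.4% higher and 15.9% lower over all genes. Of the 14, 7 were dim, at percentiles 1.15 to 32.3 of the array. Whether a dim signal hides a change in these 7 was not tested.

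Of the 10 protein-coding genes before S100a1, 8 were measured and 0 were called by limma. Of the 8, 2 had an unadjusted p under 0.05 (over all genes 19.4% were higher and 15.9% lower), and 1 also had an adjusted p under 0.05. That gene, Dennd4b, which lies 9 places before S100a1, was higher by 0.96 (SE 0.14, adjusted p = 0.0040), while Snapin and Ilf2, which are closer to S100a1, differed by 0.03 each. The other gene with an unadjusted p under 0.05 was the natriuretic peptide receptor Npr1, at -0.45 (SE 0.16, adjusted p = 0.093). None of the 10 genes after S100a10 had a probe set with its symbol alone. Over the 935 measured genes of chromosome 2 the median difference was 0.07, with 49 that rose (5.24%) and 47 that fell (5.03%), and over the 399 of chromosome 20 it was -0.02, with 12 that rose (3.01%) and 21 that fell (5.26%). Over all 14217 genes, each read from its brightest probe set, the median was 0.05, and 4.36% rose and 4.75% fell. The part of the fused chromosome 2 in the S100 values was not tested.

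**Figure D3:**
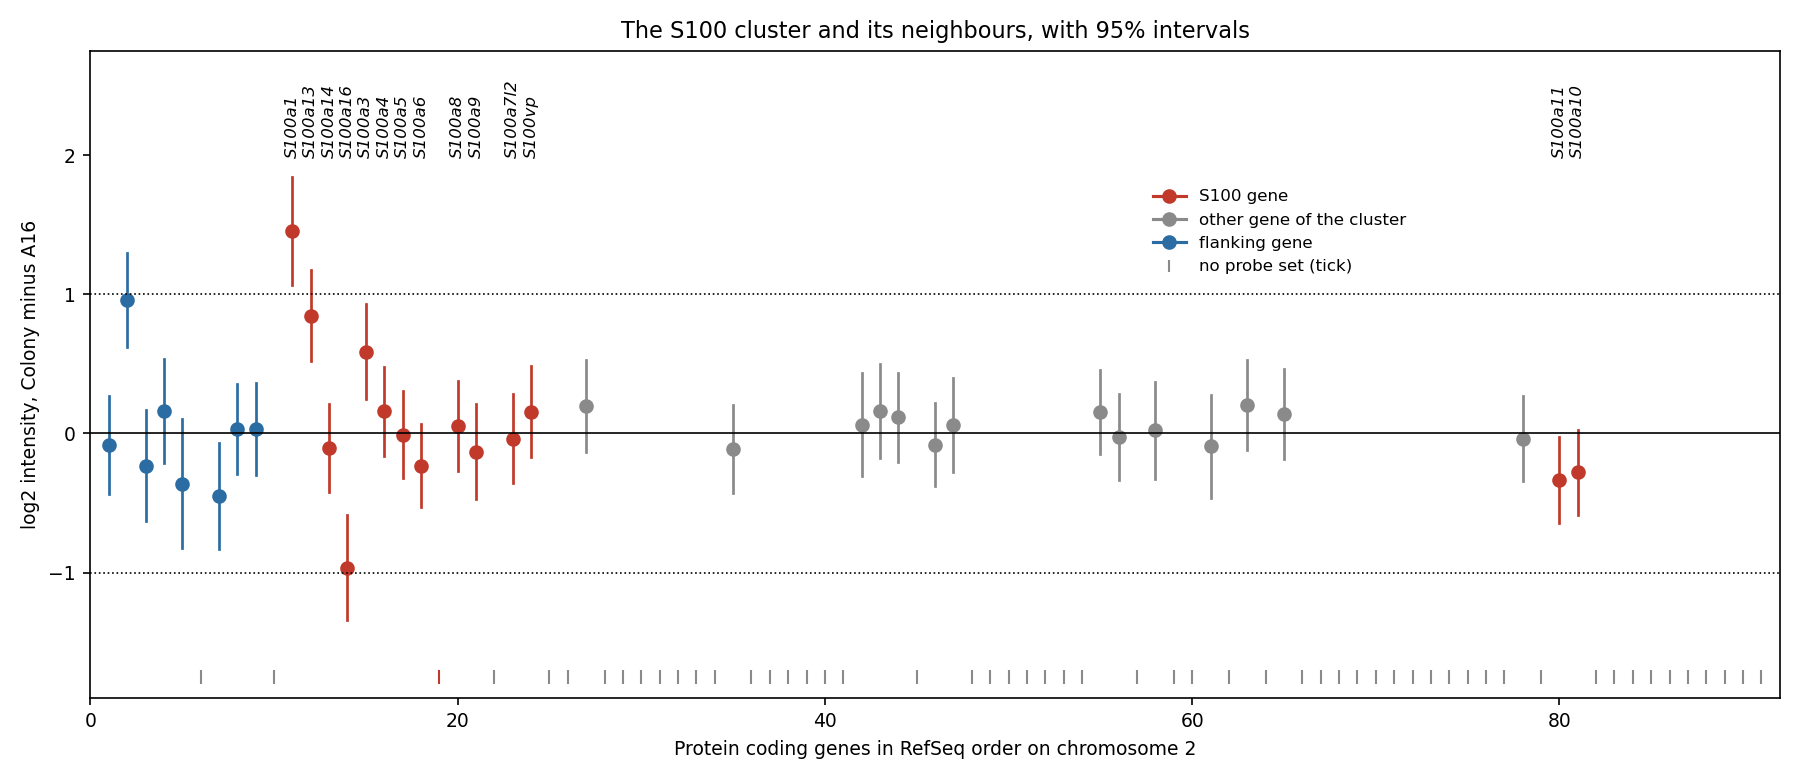
Log2 intensity of Colony minus A16 with its 95% interval (vertical axis) for the protein-coding genes around the S100 cluster, in their RefSeq order on chromosome 2 (horizontal axis). S100 genes are red and named, other genes of the cluster grey and flanking genes blue; ticks at the bottom are genes with no probe set of their own, and dotted lines mark 2-fold. The grey genes, of which 7 of the 14 measured are dim, lie between -0.11 and 0.20. S100a1, S100a13 and S100a3 lie at 0.59 or above, and S100a16 lies near the lower dotted line.

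The annexins, calcium-dependent membrane binders that S100 dimers bridge, gave 10 measured genes of 12 listed, of which 1 rose and 1 fell (median log2 difference -0.05), and the shares to set beside this and the later lists are the 4.36% and 4.75% of all genes. Anxa2, the partner of S100a10, read 16758, 17125 and 17052 in A16 cells and 11263, 11515 and 13007 in Colony cells. It lay below the A16 range on all Colony arrays, as S100a10 did, with a difference of -0.48 (SE 0.14, adjusted p = 0.045) that is under the fold threshold. Anxa1, the partner of S100a11, differed by 0.09 (SE 0.13, adjusted p = 0.69). Anxa3 fell by 2.13 on the log2 scale (SE 0.18, adjusted p = 0.00043), though its 4 probe sets ranged from -2.13 to -0.36. Anxa4 rose by 1.10 (SE 0.16, adjusted p = 0.0035), with 0.26 at its other probe set, and the call was lost without A16 biological replicate 2, without Colony biological replicate 1 and with the mean of both probe sets.

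Of 32 measured binding partners of S100 proteins, 0 rose and 3 fell, with a median log2 difference of 0.02. At an unadjusted p under 0.05, 4 were higher and 11 lower, beside 19.4% higher and 15.9% lower over all genes. Higher were Dlc1 (0.65), Ppfibp1 (0.56), Ezr (0.39) and Atp2a2, given below. The 4 probe sets of Dlc1 ranged from -0.32 to 0.65, and the other probe set of Ppfibp1 was at 0.15. Fgf1, the growth factor whose release involves S100a13, read 227, 256 and 244 in A16 cells and 67.1, 85.5 and 62.7 in Colony cells, where S100a13 was higher. It fell by 1.82 (SE 0.15, adjusted p = 0.00034), and its other probe sets were lower as well. Synaptotagmin 1 (Syt1), the other protein of that release complex, differed by 0.30 (SE 0.16, adjusted p = 0.25). Myh10, the heavy chain of non-muscle myosin IIB, fell by 2.30 (SE 0.13, adjusted p = 7.6e-05), from 2258, 2400.1 and 2171 to 467, 461 and 449. Myh9, the heavy chain of myosin IIA and the best-known target of S100a4, read 3233, 3680 and 4100 against 4048, 3495 and 1736, with overlapping groups and a difference of -0.56 (SE 0.34, adjusted p = 0.31). Plat, the plasminogen activator that S100a10 binds at the cell surface, fell by 1.52 (SE 0.16, adjusted p = 0.0011). Cacybp, the calcyclin-binding protein, differed by 0.07 (SE 0.15, adjusted p = 0.81). The targets of S100a1 in muscle, Ryr2 and Atp2a2, differed by 0.15 (SE 0.17, adjusted p = 0.60) and by 0.65 (SE 0.13, adjusted p = 0.012), but the 5 probe sets of Atp2a2 ranged from -1.51 to 0.65.

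Of 8 measured receptors of released S100 proteins, 0 were called by limma. At an unadjusted p under 0.05, 1 was higher and 3 were lower, beside 19.4% higher and 15.9% lower over all genes. Ager read 145, 132 and 134 in A16 cells and 141, 139 and 120.2 in Colony cells, with overlapping groups and a difference of -0.07 (SE 0.14, adjusted p = 0.79). Tlr4, which S100a8 and S100a9 engage, read 378, 393 and 347 against 172, 175 and 201. It was lower by 0.97 (SE 0.14, adjusted p = 0.0040), just under the fold threshold, and the other receptors with an adjusted p under 0.05 were Bsg, at -0.66 (SE 0.14, adjusted p = 0.017), and Alcam, at -0.57 (SE 0.13, adjusted p = 0.018). The higher one was Fgfr1, a fibroblast growth factor receptor, at 0.58 (SE 0.19, adjusted p = 0.068), with 0.15 at its other probe set. Tlr4 passed the fold threshold in PLIER, with the 6 arrays as separate samples, with the technical arrays averaged with biological replicate 2, with culture as a random block, without A16 biological replicate 2 and without Colony biological replicate 2.

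Other EF-hand proteins gave the following counts. Among 29 cytosolic sensors and buffers 0 rose and 1 fell, with a median of 0.01; that gene was neurocalcin delta (Ncald), a membrane-switching sensor, which read 1012, 1019 and 866 in A16 cells and 97.7, 89.8 and 93.6 in Colony cells. Its difference was -3.32 (SE 0.14, adjusted p = 2.8e-05). Of 15 EF-hand proteins of the secretory pathway 0 rose and 5 fell, with a median of -0.42, where 4.75% of all genes fell. These were Rcn3, which helps collagen to fold (-2.68, SE 0.17, adjusted p = 0.00012), the matrix protein Sparc (-2.38, SE 0.43, adjusted p = 0.0088), the prolyl isomerases Fkbp9 (-1.17, SE 0.13, adjusted p = 0.0013) and Fkbp14 (-1.04, SE 0.16, adjusted p = 0.0047), and Nucb2 (-1.02, SE 0.14, adjusted p = 0.0026). Without Colony biological replicate 1 the number that fell was 3. Of 17 calcium pumps, channels and store-entry genes 0 were called by limma, with 5 higher and 3 lower at an unadjusted p under 0.05 (19.4% and 15.9% of all genes). The higher ones were the pumps Atp2a2 (0.65) and Atp2c1 (0.58), the store release channel Itpr3 (0.73), the channel Trpc1 (0.61) and the mitochondrial uptake regulator Micu2 (0.44, adjusted p = 0.075). These values are of the brightest probe set, and the 5 probe sets of Atp2a2 ranged from -1.51 to 0.65 and the 3 of Atp2c1 from 0.03 to 0.58. The lower ones were the store release channel Itpr1 (-0.95), the store-entry channel Orai1 (-0.74) and the plasma membrane pump Atp2b4 (-0.54, adjusted p = 0.11).

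**Figure D4:**
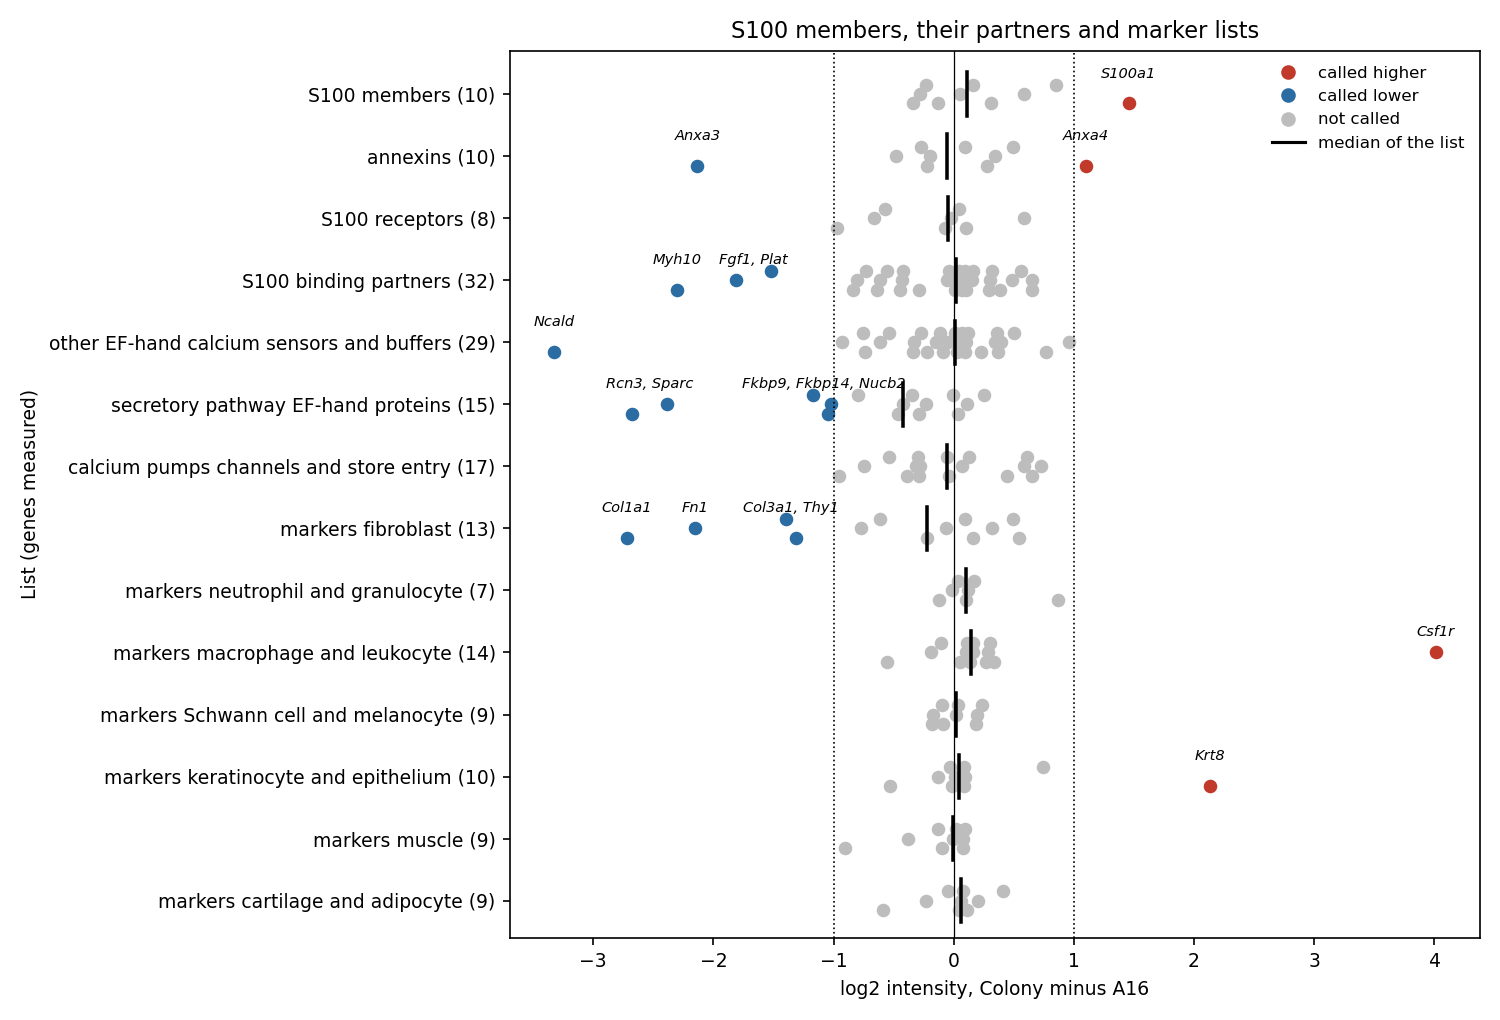
Log2 intensity of Colony minus A16 (horizontal axis) for each measured gene of 14 lists (rows, with the number of genes), each gene by its brightest probe set. Red genes were called higher, blue genes lower and grey genes neither; the black bar is the median of a list and dotted lines mark 2-fold. S100a1 is the 1 coloured gene among the S100 members, and the 5 secretory EF-hand genes and 4 fibroblast markers that were called all lie to the left.

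The genes whose pattern over the 6 arrays was most like that of S100a1, by the root mean square difference of centred log2 values among 617 other named genes that rose, were Tff2 (0.04), Zfand4 (0.09) and Cldn12 (0.10). For S100a13, which was itself not called, the nearest of 618 genes that rose were Cryab (0.09), Heatr4 (0.10) and Pkp4 (0.10). Their log2 differences of 1.00, 1.00 and 1.01 lie just over the fold threshold, and that of S100a13 is 0.85. Genes under the threshold were left out of the search, so it cannot show which genes were most like S100a13. All of these were searched among genes called higher, and the likeness is a description of 6 arrays.

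The fibroblast label was checked against 13 markers. Vimentin (Vim) read 19038, 19025 and 20840 in A16 cells and 23715, 22429 and 21433 in Colony cells, among the brightest probe sets of the array. Of the 13, 0 rose and 4 fell, namely Col1a1 (-2.72, SE 0.31, adjusted p = 0.0014), Fn1 (-2.15, SE 0.13, adjusted p = 9.4e-05), Col3a1 (-1.40, SE 0.24, adjusted p = 0.0074) and Thy1 (-1.31, SE 0.21, adjusted p = 0.0059), and the summed intensity of the 13 was 79335 to 92429 on A16 arrays and 54911 to 59225 on Colony arrays. Short of the fold threshold, Pdgfra (0.55, SE 0.13, adjusted p = 0.023) and Pdpn (0.49, SE 0.13, adjusted p = 0.037) were higher, and Col1a2 (-0.61, SE 0.13, adjusted p = 0.014) and lumican (Lum; -0.78, SE 0.13, adjusted p = 0.0066) were lower. The other probe set of Col1a2 differed by -1.01. Lumican and decorin (Dcn), which define many fibroblasts, were dim in both groups. Of 9 muscle markers, 9 Schwann and pigment cell markers and 9 cartilage and fat markers, 0 were called by limma. At an unadjusted p under 0.05 (19.4% higher and 15.9% lower over all genes) they gave 0 higher and 1 lower, 0 and 0, and 1 and 1. These were the muscle actin Acta1 (-0.91, adjusted p = 0.0059), the cartilage protein Comp (-0.59, adjusted p = 0.017) and the fat cell hormone Adipoq (0.41, adjusted p = 0.069). Summed intensity was 739.9 to 842 on A16 arrays and 777 to 820.5 on Colony arrays for muscle, 3363 to 4129 and 3339 to 3576 for Schwann and pigment cells, and 409.8 to 453 and 409.1 to 440.0 for cartilage and fat. For the 14 macrophage and leukocyte markers 1 rose, Csf1r (4.01, SE 0.19, adjusted p = 4.2e-05), while Ptprc (0.14) and Itgam (0.11) were not called and Cd14 was lower by 0.56 on the log2 scale (adjusted p = 0.037), short of the fold threshold. For the 10 keratinocyte and epithelial markers 1 rose, Krt8 (2.13, SE 0.16, adjusted p = 0.00027), and Cdh1 was higher by 0.74 (SE 0.14, adjusted p = 0.0098), short of the fold threshold and with 0.25 at its other probe set. Krt18, the usual partner of Krt8, differed by 0.01. Over the 10 epithelial markers the median log2 difference was 0.05 and the lowest -0.53. At an unadjusted p under 0.05, 2 of the 10 were higher and 1 lower, beside 19.4% higher and 15.9% lower over all genes. Summed intensity was 1539.7 to 1764 on A16 arrays and 1977 to 2047 on Colony arrays for the leukocyte list, and 1228 to 1304 and 3422 to 4198 for the epithelial list. Krt8 made up most of the epithelial sum, at 672, 669 and 794 in A16 cells and 3668, 3430 and 2891 in Colony cells. Pmp22 made up most of the Schwann and pigment cell sum, at 3341, 3558 and 2859 against 2792, 3043 and 2946. This probe set of Pmp22 differed by -0.10, but its other probe set, which is not in the sum or the counts, differed by -1.59. The part of any cells of these types in the S100 values was not tested.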

How the data were processed

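The authors hybridised RNA of A16 and Colony cells to 3 Affymetrix rat arrays per group, 1 of them a technical replicate, scanned with GeneChip Operating Software. They summarised the probes with RMA and PLIER in Avadis, and the deposited values of both are linear intensity. The sources used here give no version of either. RMA values were turned into log2 here without a pseudocount (the plan had assumed log2 values), and PLIER served as a check. The technical array, which has no biological number, was averaged with biological replicate 1, leaving 2 samples per group. Without its 57 control probe sets the table of 31099 held 31042, which were fitted with lmFit and eBayes (limma 3.58.1, R 4.3.3, prior degrees of freedom 4.76), after a test of the fit on simulated data. All p-values are from limma, two-sided and adjusted with Benjamini-Hochberg over all 31042, unless another test is named. The number of arrays limits the precision, and scan batches are not given in the labels. Symbols were updated through the gene identifier or an accession in the RefSeq table of GRCr8, which was used for names and gene order. Probe sets with 1 symbol numbered 20826, with several 436 and with none 9780. A gene outside the S100 family was read from its brightest probe set.

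The S100 members, the gene lists and the tests were chosen with earlier results of these data known, so none of them is independent of the data. The text names every S100 gene, up to 6 called genes of each list, and any gene of another list in a count of 5 or fewer, except the lower epithelial marker. It also names the 3 genes called higher that were most like each of the 2 members with the largest differences. Col1a2, Pdgfra, Pdpn, Cd14, Cdh1, Anxa1, Anxa2, Syt1, Myh9, Cacybp, Ryr2, Atp2a2, Ager, Vim, decorin, lumican, Ptprc, Itgam, Krt18, Snapin and Ilf2 lie outside this rule and were named as known partners, defining markers or neighbours after their values were seen. Motifs were searched as exact letters. Detection calls, NA16 cells and tumour cells were not analysed here. Figures were drawn with matplotlib 3.10.9 in Python 3.11.15.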

Additional observations from a re-analysis of the deposited data

How the results depend on the processing

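The call of S100a1 and the absence of any lower call among the 10 S100 genes were recomputed under 20 alternatives, 2 of which, an intensity trend in the prior variance and a crossed pairing, were chosen after seeing the data. The number called higher remained 1 under all but 2 of them. It was 3 with no fold threshold, when S100a13 and S100a3 were added, and 0 with the methods' t-test after Benjamini-Hochberg adjustment, which called 0 higher and 0 lower over the whole array but 1070 and 1313 at its unadjusted threshold, S100a1 among them. With no fold threshold limma called 3545 higher and 3511 lower. Leaving out each biological replicate in turn gave 1 S100 gene called higher and 0 lower in every fit, and 1282 to 1328 higher and 1498 to 2318 lower over the whole array. A fit without 1 replicate takes its spread from the other group and assumes that the lone sample varies alike.

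Deviations of same-numbered samples correlated at -0.15 across probe sets. With 1 deviation per group, this value cannot show whether samples of the same number were handled together. With the replicate block, 1 S100 gene was called higher and 0 lower, and 1254 higher and 1867 lower over the array; the crossed pairing gave 1, 0, 1256 and 1879. Neither changed a call of an S100 gene. Of 334 values of single S100 probe sets under the alternatives, 320 kept their side of the threshold and 0 called values changed sign; S100a8, which was not called, was below 0 in 2 of 19. S100a13 kept an adjusted p under 0.05 in 18 and S100a3 in 12 of the 19 alternatives that adjust it. For every S100 gene 1 of these alternatives, with no fold threshold, has the adjusted p of the main fit and could not differ from it. S100a5 (-1.26) and S100a16 (-2.32) were called lower in PLIER with 16 added, and the cause was not tested; S100a16 also passed the fold threshold, at -1.01 to -1.11, in 3 other treatments of the technical arrays and without the second biological replicate of either group. Of 586 counts over the other lists, 63 moved by more than 1.5 times. The 10 S100 genes have 1 probe set each, so a mean over probe sets changes none of them. S100b, S100a8 and S100a9 were dim, and their adjusted p was under 0.05 in 0 of the 18 alternatives that adjust it.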
